A study of Homo sapiens with 15 samples.

Results

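The genes described here encode 9 subunits of the human ESCRT-III complex, CHMP1A, CHMP1B, CHMP2A, CHMP2B, CHMP3, CHMP4A, CHMP4B, CHMP4C and CHMP5, together with the ATPase VPS4B that takes the complex apart. They were taken by gene symbol, with no threshold on their values, and are 10 of the 60557 genes that all libraries had in common. A count filter left 13157 genes for testing, among them 9 of the 10 members. CHMP4A did not pass it. The measurements are of RNA, so they describe transcripts of these proteins and not the proteins.

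ESCRT-III subunits are small helical proteins that lie inactive in the cytosol and assemble into spiral filaments on the inner face of a narrow membrane neck, which the filaments then pinch shut. VPS4 feeds the subunits through its ring and recycles them. The same machinery forms vesicles inside endosomes, separates daughter cells, reseals the nuclear envelope and sheds or closes wounded patches of plasma membrane. Rinse aids contain surfactants, substances that can insert into membranes.

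Monolayers of Caco-2, an epithelial line from a human colon tumour that takes on features of absorptive enterocytes, received rinse aid for dishwashers at 1:10000 (5 libraries) or at 1:40000 (5 libraries) over 24 h, or stayed unexposed as the control (5 libraries). The 1:10000 dilution is 4 times as strong as the 1:40000 dilution. Polyadenylated RNA of the same unmodified line was sequenced in all 3 groups. The labels number the libraries of a group but do not tell whether each is its own culture. The p-values therefore reflect variation among these libraries, which may be technical.

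Total counts per library lay between 5489425 and 9555632 at 1:10000, between 2551839 and 172092447 at 1:40000, and between 4333226 and 14230853 in the control. Mitochondrially encoded genes took 5.85% to 7.16% of counts at 1:10000, 1.96% to 3.30% at 1:40000 and 1.41% to 1.80% in the control, and the part of this in the results below was not tested. The file headers name HISAT2 as the aligner of the 10 rinse aid libraries and RNA STAR as that of the 5 control libraries, and the share of counts in pseudogenes was 0.686% to 0.728%, 0.625% to 0.669% and 0.213% to 0.248% at 1:10000, at 1:40000 and in the control. In every comparison with the control the effect of the rinse aid and that of the aligner cannot be told apart, while the 2 dilutions share one aligner. Of 10 enterocyte markers 9 were tested, with summed levels (CPM, counts scaled to library size) of 11500 to 13700 CPM at 1:10000, 9870 to 11100 CPM at 1:40000 and 10400 to 11800 CPM in the control. KRT20, which was not tested, was close to undetected throughout, at 0 to 2 counts per control library and at 0 in both rinse aid groups. KRT8 and KRT18 carry most of that sum and rose at 1:10000 against the control, by 0.42 and 0.74 on the log2 scale, while 6 of the 9 fell (median log2 fold change -0.68). FABP1 fell 4.79-fold, CDX2 2.72-fold, HNF4A 2.64-fold, APOA1 2.39-fold, VIL1 1.6-fold and CDH1 1.34-fold (adjusted p of 4.4e-05 or less, edgeR), and EPCAM was not called. At 1:40000 against the control, 0 of the 9 rose and 2 fell, VIL1 and HNF4A. These shifts stand beside the members' changes at 1:10000, and their part in them was not tested. The 6 fibroblast markers summed to 59.3 to 78.4 CPM at 1:10000, 104 to 134 CPM at 1:40000 and 129 to 153 CPM in the control, with COL1A1 and PDGFRB, 2 of the 4 tested, lower at 1:10000 against the control and DCN at 0 in those 2 groups. The 6 leukocyte markers summed to 16.7 to 24.6, 17.6 to 25.4 and 15.2 to 19.6 CPM in the same groups. Among them PTPRC was at 0 in all libraries and CD68 at 0 in the control. CSF1R rose 1.72-fold and LYZ fell 1.66-fold at 1:10000 against the control, and CSF1R also rose at 1:40000. The 4 endothelial markers summed to 3.26 to 4.27, 7.41 to 11.6 and 3.77 to 10.8 CPM, with KDR at 0 in all libraries, CDH5 at 0 in the control and PECAM1 2.4-fold lower at 1:10000 against the control. The part of these markers in the members' values was not tested. All libraries are labelled as the same line, Caco-2. In such bulk samples, fewer cells that express a gene and less of its RNA per cell cannot be told apart. Replicates 1 and 2 lay on one side of replicates 3 to 5 for 37.8% of tested genes at 1:10000, 42.2% at 1:40000 and 35.3% in the control, so values with replicates 3 to 5 alone are given where they bear on a result.

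The DNA in front of the start sites is shown for the 4 members that differed most at 1:10000 against the control. CHMP4C, which differed by 0.81 on the log2 scale between the dilutions, was not searched. For CHMP1B, CHMP2B and CHMP5, which had the largest increases, and CHMP1A, which had the largest decrease, the 250 bases before the RefSeq start (GRCh38.p14) were searched for motifs. The GENCODE gene models used for the loci below begin earlier, so these stretches run into them by 17 bases for CHMP1B, 38 for CHMP2B, 170 for CHMP5 and 137 for CHMP1A. Printed here, 5′ to 3′ on the gene's own strand, are the bases that precede both starts. Capitals mark a match to the cAMP response element (CRE, TGACGTCA), read on both strands. The printed bases lie at chr18:11851163-11851395 (plus strand) for CHMP1B, chr3:87227059-87227270 (plus) for CHMP2B, chr9:33264799-33264878 (plus) for CHMP5 and chr16:89657846-89657958 (minus) for CHMP1A.
CHMP1B: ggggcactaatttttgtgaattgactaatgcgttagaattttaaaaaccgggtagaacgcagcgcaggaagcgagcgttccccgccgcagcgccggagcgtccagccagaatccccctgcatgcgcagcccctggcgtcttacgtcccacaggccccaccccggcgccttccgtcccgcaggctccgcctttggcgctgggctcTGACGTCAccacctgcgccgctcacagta
CHMP2B: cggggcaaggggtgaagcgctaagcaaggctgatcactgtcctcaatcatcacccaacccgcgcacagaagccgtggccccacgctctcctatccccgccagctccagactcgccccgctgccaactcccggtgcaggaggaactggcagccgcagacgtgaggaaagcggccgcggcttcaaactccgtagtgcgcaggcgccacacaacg
CHMP5: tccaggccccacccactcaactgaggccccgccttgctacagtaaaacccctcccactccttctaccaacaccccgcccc
CHMP1A: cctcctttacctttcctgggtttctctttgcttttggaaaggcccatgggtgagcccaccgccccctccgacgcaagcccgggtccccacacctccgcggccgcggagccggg

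Stretches of 8 members were searched in the same way, without CHMP3 and CHMP4C. CHMP1B alone of these 8 held the full CRE, from 46 to 39 bases before its RefSeq start and 29 to 22 before its GENCODE start. The same 8 letters occur in 1.65% of 35116 human promoter stretches of this length. CHMP5 alone of the 8 held the core of the antioxidant response element (TGACNNNGC), 30 to 22 bases before its RefSeq start, against 10.9% of all stretches, but this match lies inside the GENCODE gene. The first letters of the CRE (TGACG), which are part of the full element, were in CHMP1A, CHMP1B, CHMP2A, CHMP4B and VPS4B and in 21.2% of all stretches, and the matches of CHMP1A and CHMP2A also lie inside the GENCODE genes. CHMP2B held none of these 3 motifs, and also none of the AP-1 site (TGANTCA, 6.57% of stretches), the E-box (CACGTG, 6.34%), the CARE core (TGATGNAA, 3.14%), the CCAAT box (CCAAT, 32.0%), the GC box (GGGCGG, 42.6%) or the TATA box (TATAAA, 10.7%). A TATA box, an AP-1 site or a CARE core was in none of the 8. The GC content of the 250 bases was 62.4% for CHMP1B, 64.0% for CHMP2B, 60.0% for CHMP5 and 71.2% for CHMP1A, against a median of 58.0% over all stretches. These matches describe letters in a window and were not tested for any link to expression.

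Levels are compared between genes as CPM per kilobase of annotated exon. CHMP4B, the subunit that forms the bulk of the filament, was the most abundant member in every group, at 160 ± 12.4 at 1:10000, 153 ± 6.22 at 1:40000 and 175 ± 4.17 CPM per kilobase in the control (SD, n = 5 each). It made up a median of 38.1% of the members' summed level per kilobase at 1:10000, 43.7% at 1:40000 and 46.1% in the control. Below it the order differed between groups. At 1:10000 CHMP2B (59.5 ± 8.81 CPM per kilobase) and CHMP1B (53.9 ± 7.24) followed with overlapping ranges, then CHMP2A (42.6 ± 3.77), CHMP5 (32.0 ± 6.24) and CHMP1A (31.1 ± 1.76), each of which overlapped its neighbour.

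In the control the second place belonged to CHMP1A, at 55.5 ± 5.96 CPM per kilobase. CHMP2A (34.0 ± 1.62) and CHMP2B (33.9 ± 2.18) came next and did not differ beyond their spread, followed by CHMP1B (25.2 ± 0.919), CHMP5 (19.4 ± 1.50) and CHMP3 (15.3 ± 0.640), whose ranges did not overlap each other. VPS4B (11.5 ± 1.04) and CHMP4C (10.7 ± 1.71) were the lowest of the tested members in the control and overlapped. At 1:40000 CHMP2A (39.8 ± 3.03) and CHMP1A (38.5 ± 4.90) came after CHMP4B, then CHMP2B (35.4 ± 2.04) and CHMP1B (30.4 ± 3.90), and each of these 4 overlapped its neighbour. The summed CPM of all members was 1040 ± 77.3 at 1:10000, 878 ± 7.58 at 1:40000 and 944 ± 18.6 in the control (SD, n = 5 each).

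**Figure D1:**
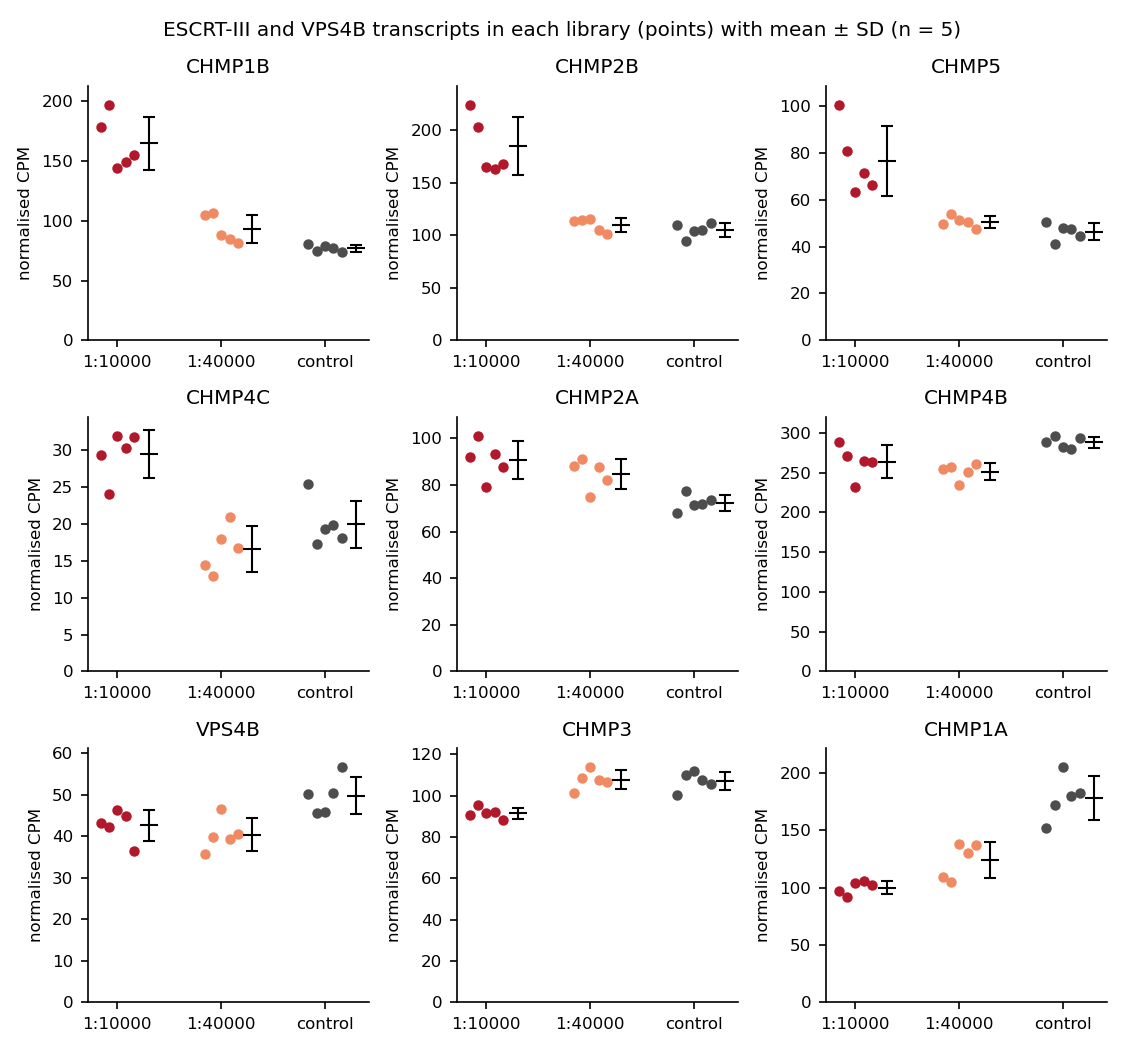
Normalised CPM of the 9 tested members in each of the 15 libraries, with points for libraries in replicate order and the mean ± SD (n = 5) beside them; each vertical axis starts at 0. CHMP1B, CHMP2B and CHMP5 at 1:10000 lie above every library at 1:40000 and every control library, and CHMP1A lies below every control library at both dilutions.

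At 1:10000 the members moved in opposite directions relative to the control. CHMP1B, CHMP2B, CHMP5, CHMP4C and CHMP2A rose and CHMP1A, CHMP3 and VPS4B fell, while CHMP4B missed the threshold. That makes 8 of 9 tested members called, meaning an adjusted p under 0.05 in the quasi-likelihood test of edgeR (Benjamini-Hochberg adjustment over all tested genes), in a comparison in which 71.0% of all tested genes were called, so a call was the usual outcome for a gene. The 5 that rose stand beside 34.8% of all genes called higher and the 3 that fell beside 36.2% called lower. In 6 of the 9, the 1:10000 and control libraries did not overlap, as for 57.8% of all genes. The median log2 fold change of the members was 0.32, against -0.02 for all tested genes, and the median absolute value was 0.58, against 0.50.

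CHMP1B and CHMP1A are paralogs that act late in filament assembly and dock VPS4 and its partners, and they moved furthest apart. CHMP1B (ENSG00000255112) is a single-exon gene of 3054 bases at chr18:11851396-11854449 (GRCh38, plus strand), 553 of which lie opposite exons of CHMP1B-AS1, an antisense gene with at most 16 counts. CHMP1B had 178, 197, 144, 149 and 155 CPM in replicates 1 to 5 at 1:10000, 105, 107, 87.8, 84.5 and 81.1 CPM at 1:40000, and 80.5, 74.6, 78.5, 77.2 and 73.6 CPM in the control. All 3 groups were separate, with 1:10000 highest and the control lowest, and replicates 1 and 2 were the higher ones at both dilutions. Its log2 fold change at 1:10000 against the control was 1.10 ± 0.086 (SE), 2.14-fold higher, with an adjusted p of 3.93e-11 by edgeR's quasi-likelihood test. Of all tested genes, 89.6% had a lower log2 fold change in that comparison. With replicates 3 to 5 alone CHMP1B stood at 0.98 on the same scale.

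CHMP1A (ENSG00000131165, chr16:89644431-89657845, minus strand) had 96.7, 91.6, 104, 105 and 102 CPM at 1:10000, 109, 105, 138, 130 and 137 CPM at 1:40000, and 152, 172, 205, 180 and 182 CPM in the control. Every library of either dilution was below every control library, and replicates 1 and 2 were the lower ones in each group. The gene fell by 0.83 ± 0.081 at 1:10000 (adjusted p = 1.74e-09, edgeR) and by 0.52 ± 0.080 at 1:40000 (adjusted p = 7.14e-06), both as log2 fold changes against the control. At 1:40000 only 11.3% of all tested genes had a lower value. Its exons share 44 of 3208 bases with SPATA33 on the other strand.

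CHMP2A and CHMP2B, the subunits that with CHMP3 cap the filament and offer VPS4 its binding site, both rose at 1:10000. CHMP2B (ENSG00000083937, chr3:87227271-87255548, plus strand) had 224, 203, 166, 164 and 168 CPM at 1:10000, 113, 114, 116, 105 and 102 CPM at 1:40000, and 110, 94.5, 105, 105 and 112 CPM in the control. The libraries at 1:10000 stood clear of all others, while 1:40000 and the control overlapped. The log2 fold change was 0.82 ± 0.080 at 1:10000 (adjusted p = 1.78e-09, edgeR) and 0.07 at 1:40000 against the control (95% interval -0.09 to 0.22, adjusted p = 0.514), so a difference at 1:40000 was not detected and one above 0.22 lies outside the interval. Replicates 1 and 2 at 1:10000 lay above the rest, and with replicates 3 to 5 alone the value at 1:10000 was 0.64.

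CHMP2A had 92.1, 101, 79.3, 93.5 and 87.5 CPM at 1:10000, 88.0, 91.3, 74.9, 87.7 and 82.0 CPM at 1:40000, and 67.9, 77.3, 71.2, 72.1 and 73.6 CPM in the control. The separation from the control was complete at 1:10000 and broken by 1 library, replicate 3, at 1:40000. Its log2 fold changes were 0.32 ± 0.072 at 1:10000 (adjusted p = 3.4e-04, edgeR) and 0.22 ± 0.071 at 1:40000 (adjusted p = 0.0130). CHMP2A is the one member whose gene model carries a different version in the rinse aid files and the control files. CHMP3 had 90.6, 95.6, 91.4, 92.1 and 88.2 CPM at 1:10000, 101, 109, 114, 108 and 107 CPM at 1:40000, and 100.5, 110, 112, 108 and 106 CPM in the control. Thus CHMP3 fell at 1:10000 by 0.23 ± 0.057 on the log2 scale (adjusted p = 9.77e-04, edgeR) with no overlap, and at 1:40000 its log2 fold change was 0.00 (95% interval -0.11 to 0.12). Of its exon bases, 10.8% also belong to the readthrough gene RNF103-CHMP3, which had at most 10 counts in any library.

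CHMP5 (ENSG00000086065, chr9:33264879-33282069, plus strand), a subunit that binds the VPS4 activator VTA1, had 100.4, 80.6, 63.4, 71.4 and 66.3 CPM at 1:10000, 49.5, 53.9, 51.3, 50.4 and 47.3 CPM at 1:40000, and 50.5, 41.2, 47.7, 47.5 and 44.3 CPM in the control. As for CHMP2B, 1:10000 was separate and the other groups overlapped. The log2 fold change was 0.73 ± 0.099 at 1:10000 (adjusted p = 3.93e-07, edgeR) and 0.13 at 1:40000 (95% interval -0.07 to 0.32, adjusted p = 0.299). Replicate 1 at 1:10000 was the highest library, and with replicates 3 to 5 alone the value at 1:10000 was 0.54.

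The CHMP4 proteins are the filament formers. CHMP4B had 288, 271, 232, 265 and 263 CPM at 1:10000, 254, 257, 234, 251 and 260 CPM at 1:40000, and 288, 296, 282, 280 and 293 CPM in the control. Its 1:40000 libraries were all below the control, with a fall of 0.20 ± 0.057 on the log2 scale (adjusted p = 0.00481, edgeR), while 1 library at 1:10000 reached the control and the log2 fold change of -0.13 ± 0.057 was at the threshold (adjusted p = 0.05003). Leaving out that library, replicate 1 at 1:10000, gave -0.145 (adjusted p = 0.0252), and replicates 3 to 5 alone gave -0.157 (adjusted p = 0.0069). Without the count filter the fall at 1:40000 was no longer called (-0.12, adjusted p = 0.183).

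CHMP4C, the paralog that delays the severing of daughter cells at the abscission checkpoint, was the scarcer form. It had 29.2, 24.0, 31.9, 30.2 and 31.8 CPM at 1:10000, 14.5, 13.0, 17.9, 20.9 and 16.7 CPM at 1:40000, and 25.4, 17.2, 19.3, 19.8 and 18.1 CPM in the control. The highest control library exceeded the lowest at 1:10000, so these groups overlapped by 1 library each way. CHMP4C rose by 0.58 ± 0.121 at 1:10000 (adjusted p = 1.37e-04, edgeR), and its log2 fold change at 1:40000 was -0.23 ± 0.121 (adjusted p = 0.111). The value at 1:40000 depended on the libraries, at -0.32 without its replicate 4 (adjusted p = 0.0313) and -0.05 with replicates 3 to 5 alone (adjusted p = 0.726). Its exons share 13.4% of their bases with ZFAND1 on the other strand. ZFAND1 had 644, 351, 525, 398 and 408 counts at 1:10000 and 123, 237, 112, 348 and 168 in the control. The 351 came from a library of 5489425 counts and the 348 from one of 14230853, so ZFAND1 was also higher for its library size at 1:10000. At 1:40000 it had 9307, 125, 1171, 390 and 385 counts, in libraries of 172092447, 2551839, 25956150, 9574190 and 9478854. How far ZFAND1 touches the CHMP4C counts was not tested.

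CHMP4A was close to undetected. Its counts were 0, 0, 0, 3 and 0 at 1:10000, 10, 1, 1, 1 and 1 at 1:40000, with the 10 in the library of 172092447 counts, and 0, 5, 1, 3 and 0 in the control. No fold is given for it. Of its exon bases, 68.8% lie within other annotated genes on the same strand, which had 0 to 12 counts themselves, so the low count describes reads assigned to CHMP4A by the authors' counting and not the amount of its transcript.

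VPS4B fell at both dilutions with overlapping groups. It had 43.2, 42.3, 46.3, 44.9 and 36.5 CPM at 1:10000, 35.7, 39.7, 46.6, 39.4 and 40.6 CPM at 1:40000, and 50.1, 45.7, 45.9, 50.5 and 56.7 CPM in the control. At 1:10000 the log2 fold change was -0.23 ± 0.087 (adjusted p = 0.0243, edgeR), a call that ended without control replicate 5 (-0.18, adjusted p = 0.0821), without replicate 5 at 1:10000 (-0.17, adjusted p = 0.0883), without replicate 2 at 1:10000 (-0.20, adjusted p = 0.0568) and without the count filter (-0.22, adjusted p = 0.0521). At 1:40000 it was -0.30 ± 0.085 (adjusted p = 0.00431).

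**Figure D2:**
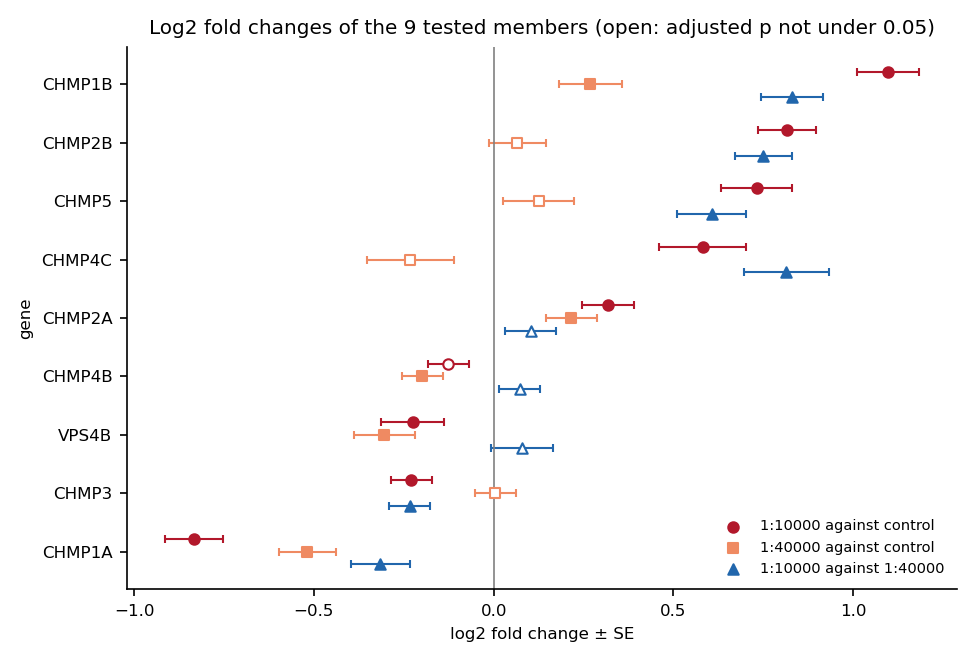
Log2 fold change ± SE of the 9 tested members in the 3 comparisons, with circles for 1:10000 against control, squares for 1:40000 against control and triangles for 1:10000 against 1:40000; open symbols had an adjusted p not under 0.05. CHMP1B, CHMP2B, CHMP5 and CHMP4C lie between 0.58 and 1.10 at 1:10000 against control, and CHMP1A lies below 0 in all 3 comparisons.

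The comparison of 1:40000 with the control uses the same 5 control libraries. CHMP1B and CHMP2A rose and CHMP1A, CHMP4B and VPS4B fell, 5 of 9 tested members, beside 52.1% of all genes called, 26.1% higher and 26.0% lower. Their groups did not overlap in 3 of the 9, CHMP1B, CHMP1A and CHMP4B, as for 36.3% of all genes. CHMP1B, the strongest riser at 1:10000, reached a log2 fold change of 0.27 ± 0.087 here (adjusted p = 0.0116, edgeR). The calls of CHMP1B and CHMP2A rested in part on the first replicates: without the deepest and the shallowest 1:40000 library, which are replicates 1 and 2, they had 0.15 (adjusted p = 0.156) and 0.17 (adjusted p = 0.0782), and 3 members were called. With replicates 3 to 5 in all groups both remained called, at 0.16 (adjusted p = 0.0271) and 0.17 (adjusted p = 0.0353). Under upper-quartile scaling 4031 genes were higher and 2900 lower over all genes, against 3439 and 3419 with TMM scaling. CHMP4B, CHMP1A and VPS4B fell under either scaling.

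Between the dilutions, where aligner and annotation were the same, the 4 genes that led at 1:10000 led again. CHMP1B, CHMP4C, CHMP2B and CHMP5 rose and CHMP1A and CHMP3 fell at 1:10000 against 1:40000, 6 of 9 tested members, beside 57.3% of all genes called, 28.3% higher and 29.0% lower. The libraries did not overlap in 5 of the 9 tested members, against 40.3% of all genes. The log2 fold changes were 0.83 ± 0.085 for CHMP1B, 0.81 ± 0.118 for CHMP4C, 0.75 ± 0.079 for CHMP2B and 0.61 ± 0.096 for CHMP5, each above the value of 88.9% to 93.8% of all tested genes. Their adjusted p-values by edgeR were 1.21e-08, 2.45e-06, 1.79e-08 and 8.86e-06. CHMP1A fell by 0.32 ± 0.081 (adjusted p = 0.00188), with overlap, and CHMP3 by 0.23 ± 0.057 (adjusted p = 0.0011), without. For CHMP2A, CHMP4B and VPS4B the differences were 0.10, 0.07 and 0.08, with 95% intervals of -0.04 to 0.24, -0.04 to 0.18 and -0.09 to 0.25. Under upper-quartile scaling 3323 of all genes were higher and 4289 lower, against 3721 and 3821 with TMM scaling, and the same 6 members were called in the same directions. The comparison shares the 1:10000 libraries with that against the control, so it is not a second independent result.

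**Figure D3:**
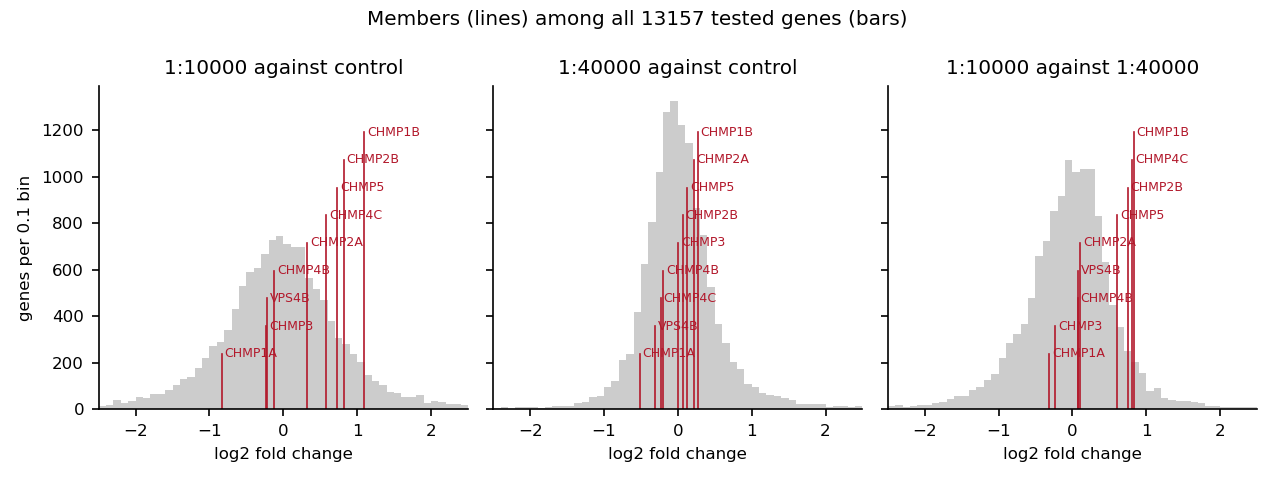
Number of the 13157 tested genes per 0.1 bin of log2 fold change (bars, shown between -2.5 and 2.5), with a line for each tested member, in the 3 comparisons; line heights only keep the names apart. CHMP1B is the member farthest to the right in each panel, and CHMP1A the farthest to the left.

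Whether paralogs shifted relative to each other was read from the ratio of their counts within a library, which no scaling between libraries touches. The ratio of CHMP1B to CHMP1A was 1.84, 2.15, 1.39, 1.42 and 1.52 at 1:10000, 0.964, 1.02, 0.637, 0.650 and 0.594 at 1:40000, and 0.529, 0.435, 0.383, 0.430 and 0.404 in the control. CHMP1B thus had more counts than CHMP1A in all 5 libraries at 1:10000, in 1 of 5 at 1:40000 and in no control library, and the 3 groups did not overlap. The log2 ratio differed by 1.92 ± 0.14 (SE) between 1:10000 and the control, by 0.80 ± 0.18 between 1:40000 and the control and by 1.12 ± 0.20 between the dilutions. Each had an exact two-sided permutation p of 0.00794, the smallest that 5 against 5 allows, and 0.0132 after Benjamini-Hochberg adjustment over 15 such tests, 5 pairs in 3 comparisons. The fifth pair, CHMP4A to CHMP4B, had too few CHMP4A counts to describe. Ratios of other gene pairs were not computed, so how often pairs in general separate is not known, here or for the pairs below. Of single tested genes, 57.8% did not overlap at 1:10000 against the control, 36.3% at 1:40000 against the control and 40.3% between the dilutions.

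CHMP2B gained on CHMP2A at the stronger dilution. Their ratio ranged from 1.75 to 2.43 with a median of 2.01 at 1:10000, from 1.20 to 1.55 with a median of 1.25 at 1:40000, and from 1.22 to 1.62 with a median of 1.47 in the control. The log2 difference was 0.48 ± 0.10 against the control and 0.64 ± 0.10 against 1:40000 (both exact permutation p = 0.00794, adjusted 0.0132), and -0.16 ± 0.094 at 1:40000 against the control (exact permutation p = 0.159, adjusted 0.238). CHMP4C to CHMP4B followed the same order, with medians of 0.114, 0.0642 and 0.0683 at 1:10000, at 1:40000 and in the control. That ratio was separate at 1:10000, by 0.69 ± 0.15 against the control and 0.77 ± 0.17 against 1:40000 on the log2 scale (both exact permutation p = 0.00794, adjusted 0.0132). At 1:40000 against the control it differed by -0.07 ± 0.17 (exact permutation p = 0.667, adjusted 0.714).

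The ratio of the VPS4 pair differed from the control at both dilutions. The aligner differed there too, and its part in the ratio cannot be told apart from that of the rinse aid. VPS4B to VPS4A had ratios of 0.855 to 1.03 at 1:10000, 0.867 to 1.16 at 1:40000 and 1.17 to 1.56 in the control, with log2 differences from the control of -0.40 ± 0.093 and -0.37 ± 0.10 (both exact permutation p = 0.00794, adjusted 0.0132). Between the dilutions, which share one aligner, the difference was -0.03 ± 0.088 (exact permutation p = 0.738). VPS4A shares 36.4% of its exon bases with neighbouring genes, and its own log2 fold change at 1:10000 was 0.16 ± 0.084 (adjusted p = 0.0933, edgeR), which was called without control replicate 5 (0.215, adjusted p = 0.0292). With replicates 3 to 5 alone the differences at 1:10000 against the control were 1.83 for CHMP1B to CHMP1A, 0.37 for CHMP2B to CHMP2A, 0.89 for CHMP4C to CHMP4B and -0.32 for VPS4B to VPS4A. At 1:40000 against the control VPS4B to VPS4A then differed by -0.22, in place of -0.37, CHMP1B to CHMP1A by 0.63 and CHMP4C to CHMP4B by 0.15.

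**Figure D4:**
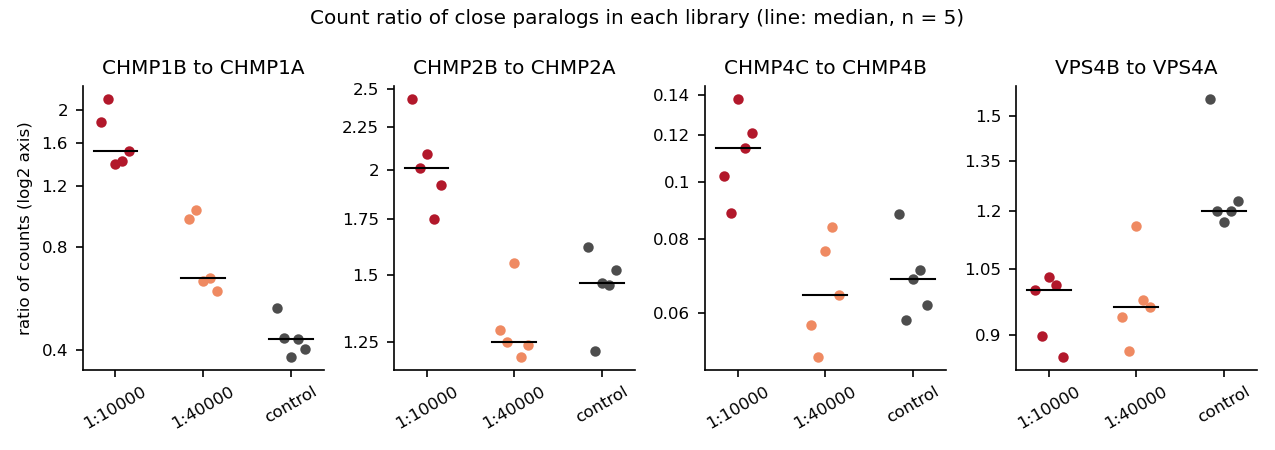
Ratio of counts of 4 pairs of paralogs in each library, on a log2 axis, with points for libraries and a line for the group median (n = 5). CHMP1B to CHMP1A separates all 3 groups with medians of 1.52, 0.650 and 0.430, and VPS4B to VPS4A is lower in every rinse aid library than in every control library.

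The rest of the ESCRT-III layer had 2 of 7 genes called in each comparison. Among CHMP6, CHMP7, IST1, VPS4A, VTA1, MITD1 and SPAST, 1 rose and 1 fell at 1:10000 against the control, 1 rose and 1 fell at 1:40000, and 2 rose between the dilutions. Over all genes 71.0%, 52.1% and 57.3% were called in these comparisons. CHMP6, which nucleates CHMP4 filaments from ESCRT-II, had 5.38, 4.27, 4.92, 4.73 and 5.74 CPM at 1:10000 and 7.39, 8.12, 5.55, 9.79 and 9.04 CPM in the control, a fall of 0.70 ± 0.186 on the log2 scale (adjusted p = 0.00167, edgeR). MITD1, an adaptor of late ESCRT-III in cell division, rose by 0.82 ± 0.113 at 1:10000 (adjusted p = 4.42e-07). Between the dilutions MITD1 was called at 0.28 (adjusted p = 0.0267, edgeR) and CHMP6 was not, at -0.39 (adjusted p = 0.0701). These outcomes depended on the libraries. With replicates 3 to 5 alone MITD1 was not called (0.20, adjusted p = 0.136) and CHMP6 was called lower (-0.55, adjusted p = 0.0134). CHMP7, which starts assembly at the nuclear envelope, and IST1, which binds CHMP1, had log2 fold changes of -0.10 (95% interval -0.25 to 0.06) and -0.02 (-0.13 to 0.09).

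Upstream of ESCRT-III the ESCRT-0, ESCRT-I and ESCRT-II subunits, ALIX and the deubiquitinases gather ubiquitinated cargo and recruit the CHMP proteins. Of these 19 genes, all tested, 13 rose and 3 fell at 1:10000 against the control, 5 rose and 6 fell at 1:40000, and 12 rose and 2 fell at 1:10000 against 1:40000. Over all tested genes, 34.8% rose and 36.2% fell, 26.1% rose and 26.0% fell, and 28.3% rose and 29.0% fell in these comparisons. The 19 genes had a median log2 fold change of 0.28, 0.02 and 0.31 in the 3 comparisons, beside -0.02, 0.00 and -0.01 for all genes. STAM, an ESCRT-0 subunit, had 208, 209, 188, 181 and 172 CPM at 1:10000, 114, 102, 101.5, 91.5 and 85.8 CPM at 1:40000, and 86.3, 85.3, 87.0, 86.5 and 84.2 CPM in the control. The 1:10000 libraries held more than any other library, with a log2 fold change of 1.16 ± 0.073 against the control (adjusted p = 4.21e-13, edgeR).

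Among ESCRT-I subunits, VPS37A rose by 1.06 ± 0.088 and UBAP1 by 0.79 ± 0.073 at 1:10000 against the control on the log2 scale (adjusted p = 7.57e-11 and 5.73e-10, edgeR), and VPS37D, at only 3.40 to 4.50 CPM at 1:10000 and 1.77 to 3.00 CPM in the control, by 0.89 ± 0.223 (adjusted p = 9.88e-04). At 1:40000 STAM, VPS37A and VPS37D were called at 0.21, 0.25 and 0.68. None of these calls remained without replicate 1 at 1:40000. The values were then 0.145 (adjusted p = 0.0885, edgeR), 0.198 (adjusted p = 0.0746) and 0.504 (adjusted p = 0.0611).

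A further list holds genes that bring ESCRT-III to the midbody, the nuclear envelope or the plasma membrane. Of 6 tested (SPART was not), 0 rose and 3 fell at 1:10000 and at 1:40000 against the control, and 1 rose and 0 fell between the dilutions. Over all tested genes, 34.8% rose and 36.2% fell at 1:10000, 26.1% rose and 26.0% fell at 1:40000, and 28.3% rose and 29.0% fell between the dilutions. The 3 that fell were CC2D1A, which binds CHMP4 and restrains its polymerization, LEMD2, which recruits CHMP7, and PDCD6, the calcium sensor ALG-2 that calls ALIX and ESCRT-III to wounds. CC2D1A fell by 0.54 ± 0.085 at 1:10000 without overlap (adjusted p = 3.59e-06, edgeR). LEMD2 fell by 0.27 ± 0.094 (adjusted p = 0.0117), which was not called without replicate 1 at 1:10000 (-0.19, adjusted p = 0.0678). At 1:40000 LEMD2 stood at -0.28 (adjusted p = 0.0115, edgeR). That call ended without the count filter (-0.21, adjusted p = 0.0874) and without the deepest and shallowest 1:40000 library (-0.21, adjusted p = 0.0774).

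PDCD6 had 0.936, 1.02, 1.39, 1.53 and 1.71 CPM at 1:10000, 1.67, 2.67, 1.78, 2.01 and 2.66 CPM at 1:40000, and 3.99, 2.06, 1.77, 4.42 and 2.97 CPM in the control. Its libraries at 1:10000 were all below the control, by 1.25 ± 0.293 on the log2 scale (adjusted p = 5.29e-04, edgeR). The gene model of PDCD6 carries version 9 in the rinse aid files and version 8 in the control files, and these levels come from few reads. The call at 1:40000 (-0.65, adjusted p = 0.0335) ended in 6 of the 15 fits that left out 1 library, for example without control replicate 4 (-0.41, adjusted p = 0.223). It also ended with DESeq2 (-0.62, adjusted p = 0.0672), with upper-quartile factors (-0.60, adjusted p = 0.0504, edgeR) and without the count filter (-0.57, adjusted p = 0.115, edgeR).

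The remaining plasma membrane repair genes, which act through calcium-triggered fusion, endocytosis or caps over the wound, changed in both directions, as genes in general did. Of 19 tested (VAMP7 and TRIM72 were not), 6 rose and 8 fell at 1:10000 against the control, 8 rose and 6 fell at 1:40000, and 4 rose and 7 fell between the dilutions. Called in either direction were 14, 14 and 11 of the 19, beside 71.0%, 52.1% and 57.3% of all genes. SMPD1, the acid sphingomyelinase that lysosomes release at wounds, had 27.2, 28.7, 32.0, 31.7 and 32.6 CPM at 1:10000, 37.7, 40.1, 41.7, 42.0 and 42.0 CPM at 1:40000, and 64.7, 79.9, 79.4, 82.7 and 80.1 CPM in the control. The 3 groups were separate, and SMPD1 fell by 1.35 ± 0.080 at 1:10000 and by 0.94 ± 0.076 at 1:40000 on the log2 scale (adjusted p = 1.18e-13 and 1.4e-10, edgeR).

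SNAP23, a fusion protein of the plasma membrane, rose by 0.77 ± 0.062 at 1:10000 (adjusted p = 5.04e-11, edgeR) and by 0.22 ± 0.062 at 1:40000 (adjusted p = 0.005), although 1836 of its 5900 exon bases lie in other genes. EHD2, which stabilizes caveolae, rose at both dilutions, by 0.84 ± 0.124 and 0.99 ± 0.119 (adjusted p = 1.5e-06 and 1.6e-07), and the difference between dilutions was -0.15 (95% interval -0.37 to 0.07). RAB3A, a GTPase that positions lysosomes for exocytosis, rose 2.45-fold and 2.5-fold against the control, at levels of 1.24 to 2.02 CPM at 1:10000, 1.01 to 2.29 CPM at 1:40000 and 0.388 to 0.884 CPM in the control (adjusted p = 0.00104 and 6.13e-04).

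**Figure D5:**
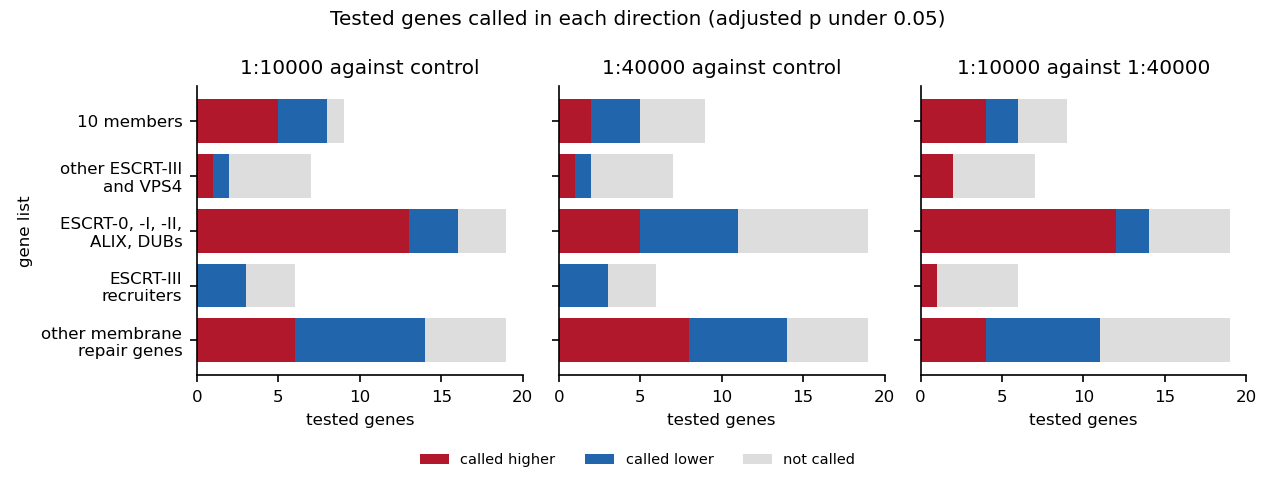
Number of tested genes called higher, called lower or not called at an adjusted p under 0.05 in the 10 members and 4 lists of related genes (the horizontal axis counts genes), in the 3 comparisons. The ESCRT-0, -I, -II, ALIX and deubiquitinase (DUB) list has 13 higher and 3 lower genes at 1:10000 against control, and the recruiters have 0 higher and 3 lower.

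Over the 10 rinse aid libraries, the 3 genes whose log2 CPM ran most nearly parallel to CHMP1B among 10379 candidates were SERINC3 (Pearson r = 0.997), TNFRSF10B (0.994) and ATAD1 (0.993), and the next stood at 0.992. TNFRSF10B, a death receptor for TRAIL, averaged 180 CPM at 1:10000, 91.2 CPM at 1:40000 and 63.9 CPM in the control, beside 165 ± 22.1, 93.0 ± 11.9 and 76.9 ± 2.81 CPM for CHMP1B (SD, n = 5 each). The libraries share their dilution group and the split between replicates, so these values describe likeness and carry no p.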

How the data were processed

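RNA of 15 Caco-2 libraries, 5 in each of 3 groups, was measured as read counts per gene, which the authors made and deposited as one table per library. Per the submitters' processing notes the tools were cutadapt, STAR 2.7.9a, featureCounts and DESeq2 1.32.0 with GRCh38. Per the file headers the control counts came from RNA STAR and the rinse aid counts from HISAT2, with 60649 and 61544 genes. Tables were joined on the Ensembl identifier without its version (60557 shared, 44 Y copies of pseudoautosomal genes left out).

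Counts were scaled by TMM, filtered by filterByExpr and fitted in edgeR 4.0.16 (R 4.3.3) with 3 group means, robust quasi-likelihood and Benjamini-Hochberg adjustment within each comparison, with a threshold of 0.05. DESeq2 1.42.0 was an alternative. The steps were also run on simulated counts. These held few changed genes and no split between replicates, so that run cannot give the error rates in these data. Each standard error is the size of the log2 fold change over the root of its F statistic. Paralog ratios (counts plus 0.5) were compared by exact permutation in scipy 1.17.1. Loci and exon lengths are from GENCODE on GRCh38, promoters from RefSeq.

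Beside the 10 members, the text names VPS4A, CHMP6, CHMP7 and IST1, up to 4 called genes of each list with the largest change at 1:10000, and 3 genes most like the member with the largest difference between dilutions (mean of at least 5 CPM). Members and lists were chosen with earlier results of these data known. Replicate numbers are the labels' own, and 30 within-group pairs of libraries differed by more than sampling noise (chi-square per degree of freedom 1.73 to 48.9), so no library was counted as a duplicate.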

Additional observations from a re-analysis of the deposited data

Results flagged for a closer look

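Across 87 groups of 5 libraries, 5 held a library far from its 4 companions, where chance gives about 1 in 20. Among members, the log2 ratio of CHMP2B to CHMP2A was 0.631 in replicate 3 at 1:40000, against 0.257 to 0.362 in the other 4 libraries. The log2 ratio of VPS4B to VPS4A was 0.639 in control replicate 1, against 0.225 to 0.298 in the others. As plain count ratios those others began at 1.17, above the maximum of 1.03 at 1:10000 and barely above that of 1.16 at 1:40000. With single libraries left out, the log2 difference at 1:40000 against the control ranged from -0.436 to -0.298. Of the related genes, VPS37D stood at 3.40 CPM in replicate 3 at 1:10000, against 4.27 to 4.50 CPM. SNAP23 stood at 102 CPM in replicate 1 at 1:40000, against 109 to 110 CPM. SMPD1 stood at 64.7 CPM in control replicate 1, against 79.4 to 82.7 CPM, and was still above every rinse aid library.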

How the results depend on the processing

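The number of all genes called stayed within 1.5 times under every alternative run, from 9053 to 9555, from 6254 to 6971 and from 7075 to 7624 when single libraries were left out, for 1:10000 against control, 1:40000 against control and 1:10000 against 1:40000. Members called then ranged from 7 to 9, from 5 to 6 and from 6 to 6. The one count of members that moved further was 3 at 1:40000 against control without the deepest and shallowest 1:40000 library, given above. With no count filter, 1:40000 against control had 4494 genes higher and 2931 lower and the median over all genes moved to 0.16, and between the dilutions it moved to -0.21. The replicate block gave 9592, 7314 and 8012 called genes and 9, 6 and 6 members, adding CHMP4B at 1:10000 and CHMP4C at 1:40000 (-0.27, adjusted p = 0.0378). The labels give no pairing, so the main fits had no replicate block. Same-numbered libraries correlated above 0.1 in 6 of 15 pairs (r from -0.05 to 0.281), and 8 of 15 libraries were closest to their own number. Libraries with the same number may therefore share some variation, and its origin was not tested. Signs changed only for values near 0 that were not called. IST1 at 1:10000 against control was 0.00119 with RLE factors, 2.34e-05 with DESeq2 and 0.00312 with TMM factors from genes free of overlap, and -0.0436 to 0.00947 with single libraries left out. IST1 at 1:40000 was 0.0132 with no filter, and between dilutions -0.00617 with upper-quartile factors and -0.0265 with no filter. CHMP7 between dilutions was -0.0401, -0.0616 and -0.000291 with upper-quartile factors, no filter and 2 groups in the fit, and -0.016 to 0.038 with single libraries left out. VPS4A at 1:40000 was -0.0604 with replicates 3 to 5 alone, an alternative chosen after seeing the data, and -0.0112 to 0.109 with single libraries left out. Leaving out single libraries also gave -0.0189 to 0.0294 for CHMP3 at 1:40000 against control, -0.162 to 0.0163 for the ratio of CHMP4C to CHMP4B in that comparison, and -0.0728 to 0.0329 for VPS4B to VPS4A between dilutions. The causes were not tested.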
